A study of Mus musculus with 21 samples.

Results

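Integrins are surface receptors built from an α and a β subunit, and the 10 genes described here encode the subunits that leukocytes use to hold fibrin, vessel walls and matrix. The genes were chosen by name, with earlier results of these data known (Itgam, Itgb2, Itgax, Itgal, Itgav, Itga4, Itgb1, Itgb3, Itgb5 and Itgb7), and all 10 were found among 45706 gene identifiers in the count table and passed the filter on low counts. RNA was sequenced from microglia (Mg, CD45low CD11b+) and infiltrating myeloid cells (Mp, CD45hi CD11b+) sorted from the tissue around a controlled cortical impact, an open-skull model of traumatic brain injury (TBI). The 21 libraries form 7 groups of 3: WT sham microglia, WT and Fgg390-396A microglia 1 and 7 days after TBI, and WT and Fgg390-396A myeloid cells 1 day after TBI. Mice were adult males, sham animals had a craniotomy without impact and were WT only, and each library pooled 2 brains at random with 40000 microglia or 25000 myeloid cells. Fgg390-396A mice (here Fgg) carry the change in the endogenous fibrinogen γ chain in every tissue, so that their fibrinogen still clots but lacks the motif bound by CD11b/CD18, the product of Itgam and Itgb2. No Fgg mutant sham group was included.

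Integrins of the β2 family are found on leukocytes. Itgam (CD11b), Itgax (CD11c) and Itgal (CD11a) each pair with Itgb2 (CD18), giving αMβ2 and αXβ2, which bind fibrin(ogen) and complement fragments, and αLβ2, which binds ICAMs on endothelium. Itgav pairs with Itgb1, Itgb3 or Itgb5 into receptors for vitronectin and other RGD ligands, of which αvβ3 also binds fibrin(ogen). Itga4 pairs with Itgb1 into the VCAM-1 receptor, or with Itgb7 into a receptor for MAdCAM-1. An α subunit reaches the cell surface only with a β partner, so the supply of both subunits matters for a receptor, and surface protein was not measured in these libraries.

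Itgal, Itgam and Itgax lie on chromosome 7 in GRCm38, with 11.1 kb between Itgam (7:128062640-128118491, plus strand) and Itgax (7:128129547-128150657, plus strand), and Itga4 and Itgav lie on chromosome 2. A same-strand gene model, Gm49368, overlaps Itgam, and Cerkl, Gm13684 and Dnmt3l-ps1 overlap Itga4 or Itgav on the opposite strand, so reads in those overlaps may not be assigned to 1 gene with certainty. RefSeq promoter sequences (GRCm38.p6) were at hand for 7 of the 10 genes, and all 7 are shown because their RNAs differed between the sorted populations or after injury. Each run gives the 150 bases before the RefSeq start site, 5′ to 3′ on the gene's strand, and capitals mark matches, on either strand, to any of 4 short motifs. The first was GAGGAA, a core that PU.1, the ETS factor of the myeloid lineage, is known to bind. The second was TGTGGT, which the RUNX factors of blood cells recognise. The third, the GC box bound by Sp1 and its relatives, was searched as GGGCGG, and the last was the TATA box of many regulated promoters, searched as TATAAA. Matches do not overlap one another in these windows.
Itgam, chr7:128062490-128062639, plus strand: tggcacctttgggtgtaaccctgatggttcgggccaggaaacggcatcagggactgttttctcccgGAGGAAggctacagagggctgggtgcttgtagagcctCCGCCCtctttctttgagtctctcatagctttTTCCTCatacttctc
Itgax, chr7:128129400-128129549, plus strand: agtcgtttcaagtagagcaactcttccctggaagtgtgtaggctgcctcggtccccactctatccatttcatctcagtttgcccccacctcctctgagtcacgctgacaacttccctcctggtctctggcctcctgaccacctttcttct
Itga4, chr2:79255276-79255425, plus strand: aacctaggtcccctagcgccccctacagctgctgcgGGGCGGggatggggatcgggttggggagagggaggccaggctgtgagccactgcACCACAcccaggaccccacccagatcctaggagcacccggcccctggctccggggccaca
Itgb7, chr15:102231936-102232085, minus strand: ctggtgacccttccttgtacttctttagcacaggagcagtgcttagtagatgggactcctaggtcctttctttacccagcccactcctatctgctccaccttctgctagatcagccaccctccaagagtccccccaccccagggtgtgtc
Itgb5, chr16:33829515-33829664, plus strand: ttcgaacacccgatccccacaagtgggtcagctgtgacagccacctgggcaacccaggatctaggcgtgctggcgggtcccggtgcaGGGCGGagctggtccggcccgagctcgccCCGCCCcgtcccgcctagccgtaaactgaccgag
Itgav, chr2:83724247-83724396, plus strand: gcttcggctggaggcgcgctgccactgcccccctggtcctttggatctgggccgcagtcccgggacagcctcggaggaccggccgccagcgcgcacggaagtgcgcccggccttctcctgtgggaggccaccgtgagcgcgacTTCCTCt
Itgb1, chr8:128685504-128685653, plus strand: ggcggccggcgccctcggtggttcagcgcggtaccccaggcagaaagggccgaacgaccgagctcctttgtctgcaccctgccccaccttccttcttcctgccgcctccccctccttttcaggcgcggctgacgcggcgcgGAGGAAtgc
The Itgam window held the PU.1 core at -84 and, on the other strand, at -15, counting from the start site, besides a GC box at -47. The same core was found in the Itgav window at -7, on the other strand, and in the Itgb1 window at -9, so that 3 of the 7 windows held it. The Itga4 window held a RUNX match at -60 and a GC box at -114, and the Itgb5 window GC boxes at -63 and -34. None of the 4 motifs was found in the windows of Itgax and Itgb7. Of 32851 promoter windows of the same length, 14.5% held the PU.1 core, 8.4% the RUNX motif, 28.6% the GC box and 7.57% the TATA box.

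Libraries held 18896963 to 51875790 gene-assigned counts, and TMM factors were highest in the sham libraries. Ribosomal RNA genes took 43.0% to 58.5% of these counts, a share of length-scaled values and not of reads. The defining markers separated the 2 sorts: the 10 microglial markers (P2ry12, Tmem119, Sall1 and others) summed to 2907 to 11683 CPM (counts scaled to a common library size) in microglia and 398 to 1131 in myeloid cells, with none of them at or under 3 counts in every library of a group. In the myeloid cells the 12 neutrophil markers (S100a8, S100a9, Ly6g and others) summed to 2842 to 13513 CPM and the 8 monocyte markers (Ccr2, Ly6c2 and others) to 787 to 1232, against 107 to 900.4 and 5.54 to 64.7 in microglia. The 6 markers of border macrophages (Mrc1, Cd163 and others) summed to 1334 to 2210 CPM in myeloid cells and 4.30 to 227 in microglia. Of these, 3 in WT and 4 in Fgg were called higher in myeloid cells than in day 1 microglia, against 7.56% and 9.33% of all genes. Markers of more than one cell type were thus present in the infiltrating myeloid cells, and in pooled cells fewer cells of a type cannot be told apart from less RNA per cell. Fgg itself was at 0 counts in every WT library and at 0 to 14 counts in the mutant libraries, so the table does not show the codon change.

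Levels are given as CPM scaled by TMM. Because transcript length was divided out of the deposited counts, levels of different genes may be compared. In sham microglia Itgam was the highest of the 10 genes at 267 ± 52.1 CPM (mean ± SD, n = 3 here and for every group), followed by Itgb5 at 155 ± 39.7, Itgb2 at 83.6 ± 15.7, Itgav at 82 ± 5.74 and Itgb1 at 69.9 ± 7.71. The ranges of Itgb2, Itgav and Itgb1 overlapped. Itgb3 was at 15.3 ± 3.35 CPM, while Itgax (2.0 ± 0.958), Itga4 (1.68 ± 1.1), Itgal (0.79 ± 0.372) and Itgb7 (0.384 ± 0.234) were near the bottom. The 5 highest genes encode αM, β5, β2, αv and β1.

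**Figure D1:**
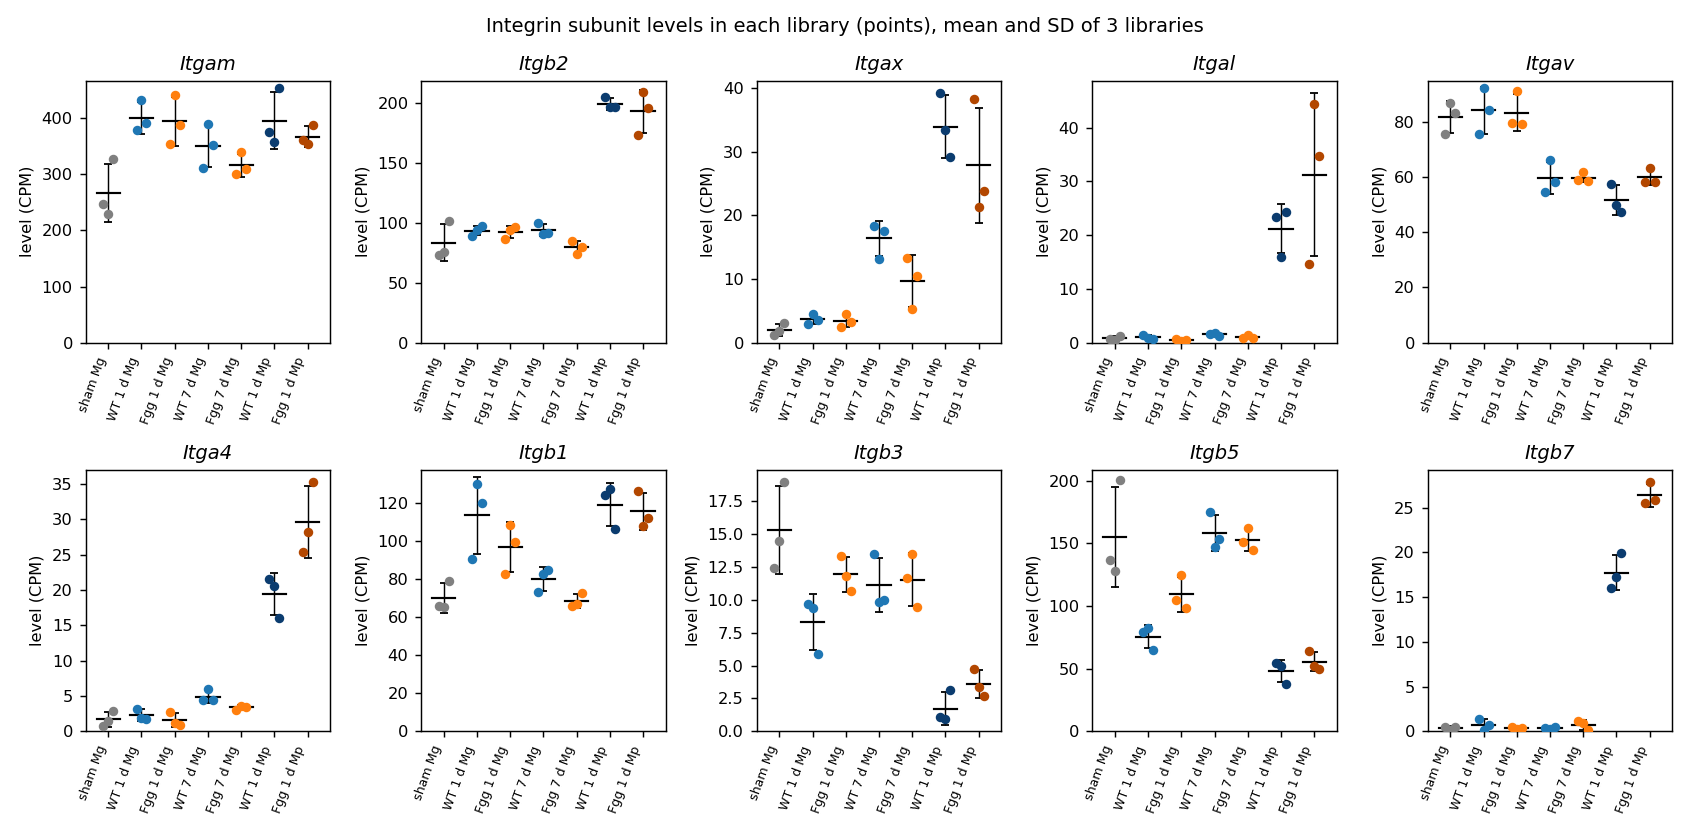
Level of each integrin gene (y axis, CPM on a linear scale from 0, a separate scale per panel) in the 7 groups (x axis). Points are the 3 libraries of a group, the horizontal line is their mean and the bar their SD. Itgb2, Itgax, Itgal, Itga4 and Itgb7 are highest in myeloid cells, Itgb5 and Itgb3 are lowest there, and Itgax in microglia is highest at day 7.

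To examine what TBI did to these receptors in microglia, injured groups were compared with sham. The 4 comparisons share the same 3 sham libraries. The labels give no day after surgery for sham, so whether it matches day 1 or day 7 in time is not known. In WT microglia 3 of the 10 genes were called at day 1 (adjusted p under 0.05, edgeR quasi-likelihood test, Benjamini-Hochberg over 23815 genes), where 16.7% of all genes were called. Itgam and Itgb1 rose (10.7% of all genes rose) and Itgb5 fell (5.97% fell). In Fgg microglia at day 1 only Itgam was called, 1 of 10, against 9.8% of all genes called, 7.6% higher and 2.19% lower. At day 7 Itgax was the 1 gene called in each genotype, against 2.69% of all genes in WT (2.42% higher, 0.265% lower) and 0.886% in Fgg (0.831% higher, 0.0546% lower).

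Itgam, whose protein CD11b was part of both sort gates, was at 246, 229 and 327 CPM in the sham libraries and at 379, 433 and 392 in WT and 354, 442 and 388 in Fgg microglia at day 1. Every day 1 library was above every sham library. The rise was 1.5-fold in WT (log2 fold change 0.59 ± 0.16 (SE), adjusted p = 0.0131) and 1.48-fold in Fgg (log2 fold change 0.56 ± 0.16 (SE), adjusted p = 0.0267). At day 7 it was at 312, 389.5 and 352 CPM in WT and 300.1, 339 and 309 in Fgg, which overlapped sham (adjusted p = 0.297 and 0.743). The WT call was lost with only the compared groups in the fit (adjusted p = 0.0844) and without sham replicate 1 (adjusted p = 0.0611) or 2 (0.0857), and the Fgg call without sham replicate 1 (0.11) or 2 (0.154) or Fgg day 1 replicate 2 (0.151) or 3 (0.0694). With DESeq2 size factors in place of TMM, which moved the Fgg day 1 over sham log2 fold changes of the abundant members by a median of -0.13, the Fgg call was also lost (0.0842), as it was with only the compared groups in the fit (0.125).

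Itgb2, the common β2 chain, was not called at day 1. It was at 73.6, 75.4 and 102 CPM in sham, 89.2, 94.5 and 97.4 in WT day 1 and 86.4, 94.3 and 96.5 in Fgg day 1 microglia, and the groups overlapped (log2 fold change over sham 0.16 in WT, 95% interval -0.13 to 0.46, and 0.14 in Fgg, -0.15 to 0.44). The ratio of Itgb2 to the summed level of its α partners (Itgam, Itgax, Itgal and Itgad) was lower at day 1, at 0.296, 0.325 and 0.307 in sham, 0.233, 0.215 and 0.246 in WT and 0.242, 0.211 and 0.246 in Fgg. Both day 1 groups were below every sham library (p = 0.1 for each, the smallest possible with 3 against 3, by exact permutation, two-sided). The drop was not particular to day 1. At day 7 the ratio was 0.302, 0.225 and 0.246 in WT, which overlapped sham (exact permutation p = 0.2). In Fgg it was 0.270, 0.214 and 0.249, below every sham library (exact permutation p = 0.1). Day 7 overlapped day 1 in both genotypes (exact permutation p = 0.4 in WT and exact permutation p = 0.5 in Fgg). Itgam made up 98.6% to 99.3% of that α sum in sham microglia.

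Itgax, known as a marker of dendritic cells and of microglia in damaged brain, was the gene that rose most at day 7. Its level was 1.12, 1.86 and 3.02 CPM in sham, 2.94, 4.52 and 3.59 in WT and 2.48, 4.43 and 3.29 in Fgg at day 1, and 18.3, 13.2 and 17.6 in WT and 13.3, 5.31 and 10.4 in Fgg at day 7. All day 7 libraries were above all sham and day 1 microglia. The rise over sham was 8.13-fold in WT (log2 fold change 3.02 ± 0.38 (SE), adjusted p = 0.000112) and 4.81-fold in Fgg (log2 fold change 2.27 ± 0.37 (SE), adjusted p = 0.00342). Itgax then took 4.51 ± 1.14% of the β2 partner sum in WT and 3.0 ± 1.36% in Fgg, compared with 0.721 ± 0.241% in sham. The 6 dendritic cell markers summed to 3.67 to 12.3 CPM in sham, 6.07 to 13.9 in WT day 7 and 4.87 to 7.07 in Fgg day 7 microglia, ranges that overlapped. In the same order border macrophage markers summed to 4.30 to 227, 143 to 224 and 86.4 to 219 CPM. Neutrophil markers summed to 160 to 862, 264 to 900.4 and 396 to 473 CPM, and both sets of ranges overlapped. The part of such cells in the Itgax values was not tested. With only the compared groups in the fit the Fgg call was lost (adjusted p = 0.0828).

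Itgb1, the β chain of most matrix receptors, was at 65.7, 65.3 and 78.8 CPM in sham and 90.7, 129.6 and 120.1 in WT day 1 microglia, where the rise was 1.62-fold (log2 fold change 0.7 ± 0.16 (SE), adjusted p = 0.00331). In Fgg microglia at day 1 it was at 82.4, 108 and 99.5 CPM, all above sham, but not called (adjusted p = 0.0674). Itgb5 moved the other way. It was at 136, 128 and 201 CPM in sham, 79.2, 82.2 and 65.2 in WT and 105, 125 and 98.5 in Fgg at day 1, so that all day 1 libraries were below all sham libraries. The fall was to 0.487 of the sham level in WT (log2 fold change -1.04 ± 0.19 (SE), adjusted p = 0.000453), and the Fgg value was -0.51 (adjusted p = 0.101). DESeq2 (adjusted p = 0.00251) and edgeR with DESeq2 size factors (0.0262) or the filterByExpr filter (0.0433) did call Itgb5 in Fgg. Leaving out any 1 library of either group kept the Itgb1 and Itgb5 calls in WT. Without Fgg day 1 replicate 1, Itgb1 was also called in Fgg (adjusted p = 0.0298).

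The remaining αv and α4 genes gave no call against sham. Itgb3, the β chain of the fibrin-binding αvβ3, was at 12.4, 14.5 and 19 CPM in sham, 9.7, 9.41 and 5.89 in WT and 13.4, 11.8 and 10.7 in Fgg at day 1. The WT libraries were all below sham (log2 fold change -0.88, adjusted p = 0.0987), and those of Fgg overlapped it (log2 fold change -0.36, adjusted p = 0.617). DESeq2 called Itgb3 in WT (adjusted p = 0.0255). Itgav was at 75.7, 86.9 and 83.4 CPM in sham and at 54.7, 66.3 and 58.2 in WT and 59.2, 61.8 and 58.6 in Fgg at day 7, with both day 7 groups below sham but not called (adjusted p = 0.0813 and 0.165), whereas DESeq2 called both (0.000115 and 0.000144). The WT change was also called by edgeR with DESeq2 size factors (adjusted p = 0.0467) or the filterByExpr filter (0.0365). Itga4 was at 0.701, 1.48 and 2.87 CPM in sham and 4.4, 5.97 and 4.37 in WT at day 7, above sham without a call (adjusted p = 0.0647), and it was called by DESeq2 (0.0108) and without sham replicate 3 (0.0115). Likewise Itgax in WT at day 1 was called without sham replicate 3 alone (adjusted p = 0.0284). Itgal and Itgb7 stayed at or below 1.79 CPM in all 15 microglial libraries.

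**Figure D2:**
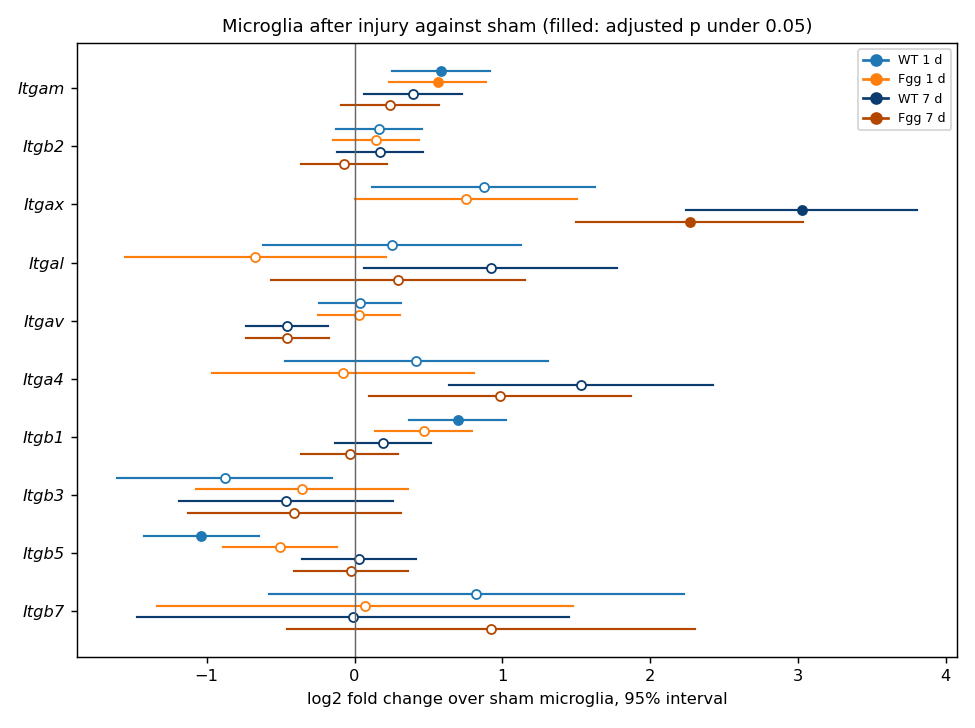
Log2 fold change over sham microglia (x axis) with its 95% interval for each gene (y axis) in WT and Fgg microglia at days 1 and 7, all against the same 3 sham libraries. Filled points passed adjusted p under 0.05: Itgam, Itgb1 and Itgb5 in WT and Itgam in Fgg at day 1, and Itgax in both genotypes at day 7.

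Day 7 was also compared with day 1 within each genotype, to see which changes had receded. In WT microglia 4 of the 10 genes were called, 2 higher and 2 lower, against 10.3% of all genes (3.7% higher and 6.6% lower). Itgax rose 4.44-fold (log2 fold change 2.15 ± 0.36 (SE), adjusted p = 0.000515) and Itgb5 2.1-fold (log2 fold change 1.07 ± 0.19 (SE), adjusted p = 0.000712), the latter to 175, 147 and 153 CPM, within the sham range. Itgav fell (log2 fold change -0.50 ± 0.13 (SE), adjusted p = 0.0188) from 75.7, 92.5 and 84.6 CPM, and Itgb1 fell (log2 fold change -0.5 ± 0.16 (SE), adjusted p = 0.0443) to 72.9, 82.5 and 84.4. The Itgav call was lost with only the compared groups in the fit (adjusted p = 0.0656), and that of Itgb1 likewise (0.0955), with DESeq2 size factors (0.0838) and without a filter (0.056). The Itgav call was also lost without WT day 1 replicate 2 (adjusted p = 0.0503) or WT day 7 replicate 3 (0.0782), and that of Itgb1 without WT day 1 replicate 2 (0.127) or 3 (0.0895) or WT day 7 replicate 1 (0.0905), 2 (0.0955) or 3 (0.085). DESeq2 in addition called Itga4 higher at day 7 (log2 fold change 1.2, adjusted p = 0.0339), which edgeR did not (0.11).

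In Fgg microglia 2 of the 10 genes were called between day 7 and day 1, 1 in each direction, against 5.64% of all genes (1.08% higher and 4.56% lower). Itgax rose 2.85-fold (log2 fold change 1.51 ± 0.35 (SE), adjusted p = 0.0134) and Itgav fell (log2 fold change -0.48 ± 0.13 (SE), adjusted p = 0.0375) from 79.9, 91.4 and 79.3 CPM. Itgb5 was at 151, 162 and 145 CPM at day 7, above all 3 day 1 libraries but not called (adjusted p = 0.165), and Itgb1 was at 65.7, 66.7 and 72.6, below all 3 (adjusted p = 0.0691), whereas DESeq2 called both. The Itgav call was lost with DESeq2 size factors (0.0921) and without a filter (0.0554). The Itgax call was lost without Fgg day 1 replicate 1 (0.0532) or 3 (0.0603) or Fgg day 7 replicate 1 (0.0899). That of Itgav was also lost without Fgg day 1 replicate 2 (0.211) or 3 (0.0782) or Fgg day 7 replicate 1 (0.121), 2 (0.10) or 3 (0.135). Without Fgg day 1 replicate 1, Itga4 (0.0161) and Itgb1 (0.0307) were called.

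The balance between the main β partners of αv, Itgb1 and Itgb5, shifted toward Itgb1 at day 1, and in WT microglia Itgb1 was then the higher of them. Among the summed β partners of αv (Itgb1, Itgb3, Itgb5, Itgb6 and Itgb8), Itgb5 held 63.6, 61.6 and 67.2% in the sham libraries, 44.1, 37.1 and 34.1% in WT and 52.2, 50.9 and 47.2% in Fgg microglia at day 1, and 66.9, 61.4 and 61.9% in WT and 66.2, 66.9 and 63.8% in Fgg at day 7. Itgb1 held 29.5 ± 2.67% in sham, 57.3 ± 6.23% in WT day 1 and 44.3 ± 3.3% in Fgg day 1 libraries. Day 1 shares of Itgb5 did not overlap those of sham in either genotype, and Fgg lay between sham and WT without overlapping either (exact permutation p = 0.1 in each comparison, the smallest possible). Itgb3 held 6.37 ± 0.59% in sham, and Itgb6 was at 0 in every library. Itgb1 also pairs with other α chains, so these shares describe RNA supply and not receptors formed.

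**Figure D3:**
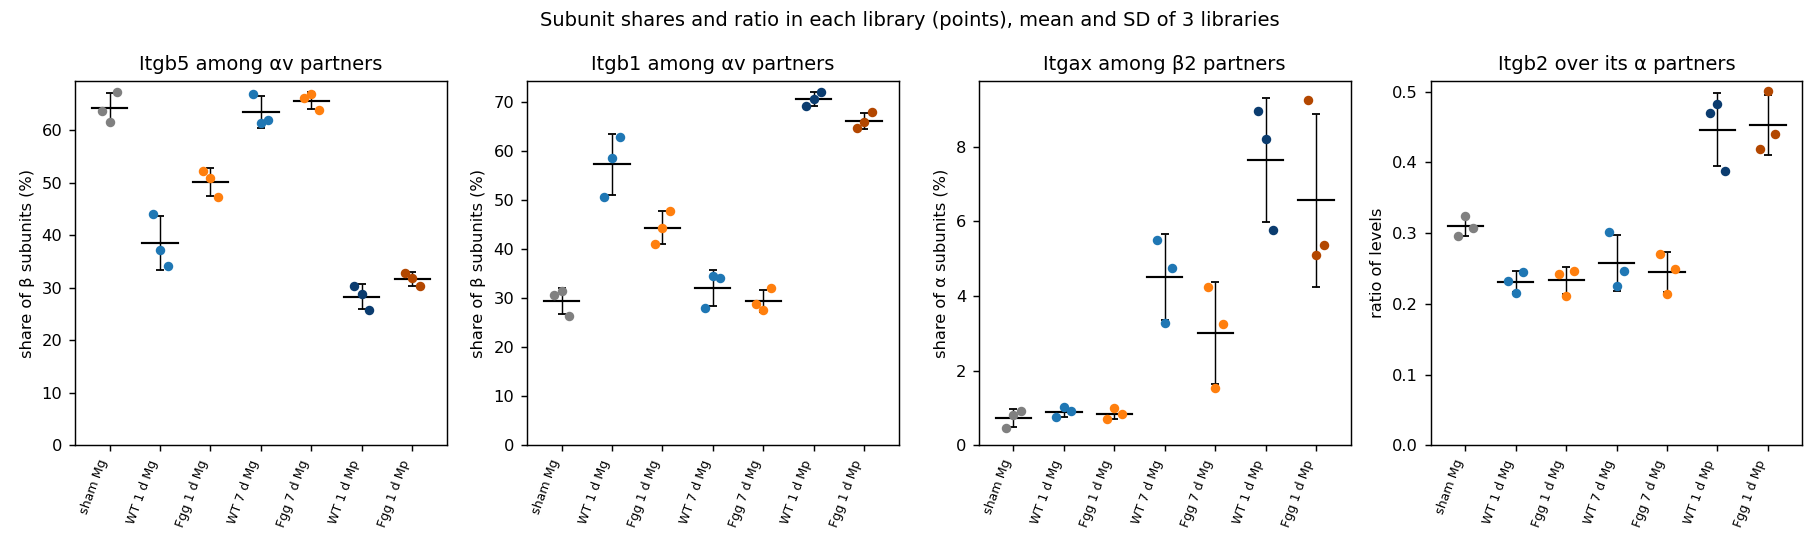
Share of Itgb5 and of Itgb1 among the β partners of αv, share of Itgax among the α partners of β2 (y axes in percent), and the ratio of Itgb2 to its summed α partners, by group (x axes). Points are libraries, lines means and bars SD of 3. The Itgb5 share dips at day 1 and returns at day 7 in microglia, and is lowest in myeloid cells, where the Itgb2 ratio is highest.

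To see which receptors set apart the CD45hi sort, which held markers of several cell types, myeloid cells were compared with microglia of the same genotype at day 1. In each genotype 8 of the 10 genes were called, 5 higher and 3 lower in myeloid cells. Among all genes 15.7% were called in WT (7.56% higher and 8.11% lower) and 21.4% in Fgg (9.33% higher and 12.1% lower). Itgb2, Itgax, Itgal, Itga4 and Itgb7 were higher and Itgav, Itgb3 and Itgb5 lower, while Itgam and Itgb1 were not called. The median log2 fold change of the 10 genes was 0.58 in WT and 0.66 in Fgg, beside -0.11 and -0.17 over the 11561 genes with a median of at least 1 CPM.

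Itgb2 was at 206, 197 and 197 CPM in WT and 174, 209.8 and 196 in Fgg myeloid cells, 2.13-fold (log2 fold change 1.09 ± 0.14 (SE), adjusted p = 1.86e-05) and 2.09-fold (log2 fold change 1.06 ± 0.14 (SE), adjusted p = 1.96e-05) the level in microglia. No myeloid library overlapped any microglial one. Itgam was at 375, 358 and 455 CPM in WT and 361, 354 and 388 in Fgg myeloid cells, within the day 1 microglial range or near it, with log2 fold changes of -0.02 (95% interval -0.35 to 0.31) and -0.10 (-0.43 to 0.23). CD11b protein was required in both gates. The ratio of Itgb2 to its α partners was accordingly 0.469, 0.483 and 0.387 in WT and 0.419, 0.50 and 0.439 in Fgg myeloid cells, above every microglial library (exact permutation p = 0.1 for each genotype).

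The other β2 partners differed far more. Itgax was at 39.2, 33.4 and 29.3 CPM in WT and 38.3, 21.4 and 23.9 in Fgg myeloid cells, 9.21-fold and 8.2-fold above day 1 microglia. Itgal, the α chain that binds ICAMs, was at 23.4, 15.9 and 24.2 CPM in WT and 14.7, 44.3 and 34.8 in Fgg myeloid cells, compared with 1.37, 0.796 and 0.702 and 0.597, 0.378 and 0.522 in microglia (log2 fold change 4.46 ± 0.43 (SE), adjusted p = 8.89e-07 in WT, and log2 fold change 5.95 ± 0.47 (SE), adjusted p = 7.22e-08 in Fgg). The myeloid and microglial ranges were wide apart, and among myeloid cells Fgg replicate 1 was lowest and Fgg replicate 2 highest. Itgam still held 87.7 ± 1.89% of the β2 partner sum in WT and 86.1 ± 1.58% in Fgg myeloid cells, with Itgal at 4.67 ± 0.723% and 7.3 ± 3.54%. Itgad was at 0 in all 6 myeloid libraries.

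Both chains of the α4 receptors other than Itgb1 were higher in myeloid cells. Itga4 was at 21.6, 20.6 and 16.1 CPM in WT and 25.4, 28.2 and 35.3 in Fgg myeloid cells (log2 fold change 3.09 ± 0.44 (SE), adjusted p = 5.55e-05 and log2 fold change 4.2 ± 0.46 (SE), adjusted p = 2.46e-06). Itgb7 was at 16.1, 17.3 and 19.9 and 25.5, 27.9 and 25.8 CPM, compared with 1.34, 0.109 and 0.663 in WT and 0.522, 0.302 and 0.402 in Fgg microglia, where single libraries held as few as 3 counts (log2 fold change 4.66 ± 0.67 (SE), adjusted p = 6.49e-05 and log2 fold change 5.98 ± 0.71 (SE), adjusted p = 6.19e-06). Itgb1 was at 124, 127 and 106 and 126, 108 and 112 CPM and overlapped day 1 microglia (log2 fold change 0.07, 95% interval -0.26 to 0.40, in WT and 0.25, -0.07 to 0.58, in Fgg). DESeq2 called Itgb1 in Fgg (adjusted p = 0.0167). The 12 lymphocyte markers, from cells known to use α4β7 and αLβ2, summed to 6.27 to 13.7 CPM and the 6 dendritic cell markers to 61.3 to 144 in myeloid cells, against 0.507 to 1.7 and 2.09 to 8.59 in day 1 microglia. Of the lymphocyte markers 1 of 12 in WT and 2 of 12 in Fgg, and of the dendritic cell markers 4 of 6 and 4 of 6, were called, all higher. Among all genes 7.56% in WT and 9.33% in Fgg were called higher. Among lymphocyte markers Ms4a1 was at or under 3 counts in every Fgg myeloid library. The part of lymphocytes, dendritic cells, neutrophils, monocytes or border macrophages in the Itgal, Itgax, Itga4 and Itgb7 values was not tested.

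Of αv and its partners, Itgav, Itgb3 and Itgb5 were lower in myeloid cells, while Itgb1 was not. Itgb3 was at 1.06, 0.948 and 3.16 CPM in WT and 4.74, 3.33 and 2.72 in Fgg (log2 fold change -2.28 ± 0.37 (SE), adjusted p = 0.000225 and log2 fold change -1.74 ± 0.36 (SE), adjusted p = 0.00152). Itgb5 was at 54.3, 51.9 and 38.1 and 64.1, 52.1 and 50.1 CPM (log2 fold change -0.65 ± 0.19 (SE), adjusted p = 0.020 and log2 fold change -0.98 ± 0.19 (SE), adjusted p = 0.00075), and Itgav at 57.8, 50.1 and 47.5 and 58.2, 63.5 and 58.5 (log2 fold change -0.7 ± 0.13 (SE), adjusted p = 0.000938 and log2 fold change -0.48 ± 0.13 (SE), adjusted p = 0.014). In all 3 genes myeloid and day 1 microglial libraries did not overlap. The WT call of Itgb5 was lost with only the compared groups in the fit (adjusted p = 0.0806), and the Fgg call of Itgav likewise (0.222) and with DESeq2 size factors (0.0514). The WT call of Itgb5 was also lost without WT day 1 microglia replicate 1 (adjusted p = 0.0583) or 2 (0.104) or WT myeloid replicate 3 (0.11), and the Fgg call of Itgav without Fgg day 1 microglia replicate 2 (0.0693) or Fgg myeloid replicate 1 (0.105). The 6 platelet markers, from cells rich in αIIbβ3, summed to 33.8 to 142 CPM in myeloid cells and 6.55 to 29 in day 1 microglia. The markers did not move together. Ppbp, a platelet chemokine, took most of the myeloid sum, at 81.7 ± 54.3 CPM in WT and 68.9 ± 31.5 in Fgg against 4.95 ± 4.42 and 2.16 ± 0.45 in microglia. Gp9, a chain of the platelet receptor for von Willebrand factor, was lower in myeloid cells, at 0.697 ± 0.617 and 1.23 ± 1.07 CPM against 6.98 ± 3.25 and 14.6 ± 8.07. Of the 6 markers 1 was called higher and 1 lower in WT (list median log2 fold change 0.49), and 1 higher and 3 lower (Gp9, Treml1 and Gp1ba) in Fgg (list median -3.45). Among all genes 15.7% in WT and 21.4% in Fgg were called in either direction. Itga2b, the α chain specific to platelets, was at or under 3 counts in every WT microglial and every Fgg myeloid library at day 1. The part of platelets in the Itgb3 values was not tested.

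**Figure D4:**
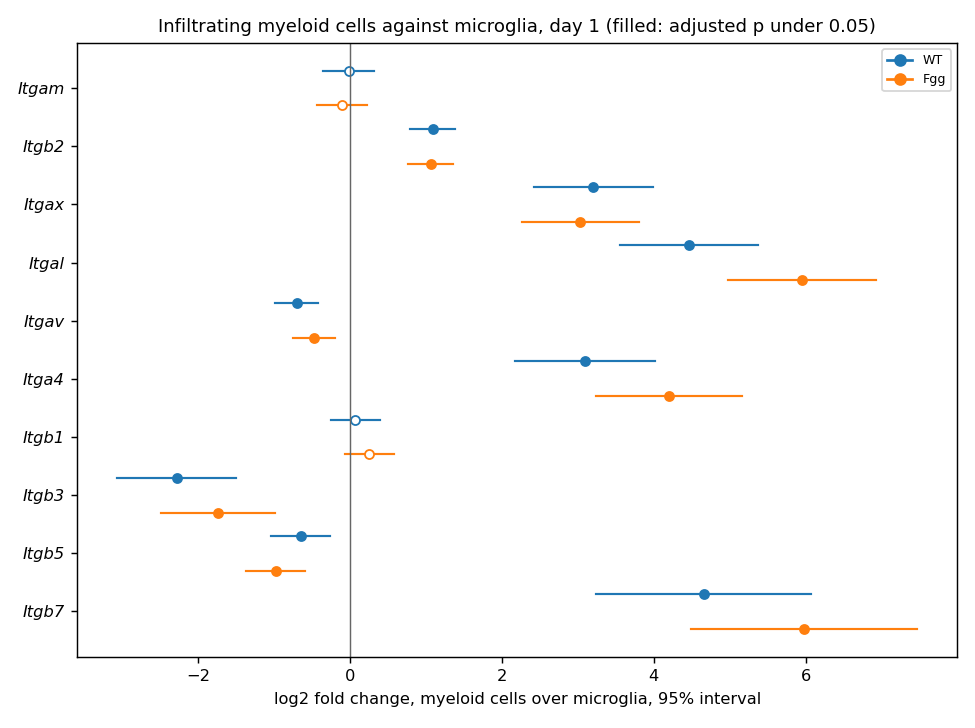
Log2 fold change of myeloid cells over microglia at day 1 (x axis) with its 95% interval, in WT and Fgg, for each gene (y axis). Filled points passed adjusted p under 0.05. Itgb2, Itgax, Itgal, Itga4 and Itgb7 lie to the right of 0, Itgav, Itgb3 and Itgb5 to the left, and Itgam and Itgb1 near 0 with open points in both genotypes.

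The effect of the fibrinogen mutation on these receptors was examined in each sorted population. None of the 10 genes was called between Fgg and WT by edgeR or by DESeq2 in day 1 microglia, day 7 microglia or myeloid cells, where edgeR called 0.042%, 0.0378% and 0.206% of all genes and DESeq2 0.349%, 0.31% and 2.67% of the 23223 genes it gave a p-value. By edgeR, at an unadjusted p under 0.05 there were 2, 1 and 1 of the 10, against 1208, 795 and 2748 of all 23815 genes. Groups did not overlap for 3 of 10 genes in each comparison, against 8.72%, 11.1% and 8.02% of all genes.

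In day 1 microglia Itgam and Itgb2, which form the receptor whose binding motif the mutant lacks, had log2 fold changes of Fgg over WT of -0.02 (95% interval -0.35 to 0.31) and -0.02 (-0.31 to 0.27). Itgb5 was higher in every Fgg than in every WT library (log2 fold change 0.53, 95% interval 0.15 to 0.92, edgeR adjusted p = 0.881), as was Itgb3 (0.52, -0.20 to 1.25). Itgal was lower in every Fgg library (-0.93, -1.81 to -0.04), with no library of either group above 1.37 CPM. The microglial marker sum was 2907 to 4472 CPM in WT and 5061 to 6557 in Fgg at day 1, beside 10414 to 11683 in sham. It was thus highest in sham and higher in every Fgg than in every WT library, the same order as Itgb5. The part of cell composition or of the general injury response in the Itgb5 values was not tested.

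In day 7 microglia Itgb2, Itga4 and Itgb1 were lower in every Fgg than in every WT library, with log2 fold changes of -0.24 (95% interval -0.53 to 0.05), -0.55 (-1.41 to 0.32) and -0.23 (-0.55 to 0.10). Itgax, higher in 2 of 3 WT libraries than in any Fgg library, had -0.76 (-1.48 to -0.04, adjusted p = 1.0), and Itgam -0.15 (-0.48 to 0.18). In myeloid cells Itgav, Itga4 and Itgb7 were higher in every Fgg library, with 0.21 (-0.06 to 0.49), 0.61 (-0.23 to 1.45) and 0.57 (-0.6 to 1.75). Itgb3 had 1.06 (0.30 to 1.83, adjusted p = 0.27) with overlapping groups, and was called only without WT myeloid replicate 3, its highest WT library (adjusted p = 0.023). Itgam and Itgb2 had -0.11 (-0.44 to 0.22) and -0.05 (-0.34 to 0.24). Neutrophil marker sums were 3648 to 13513 CPM in WT and 2842 to 6072 in Fgg myeloid cells and overlapped.

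**Figure D5:**
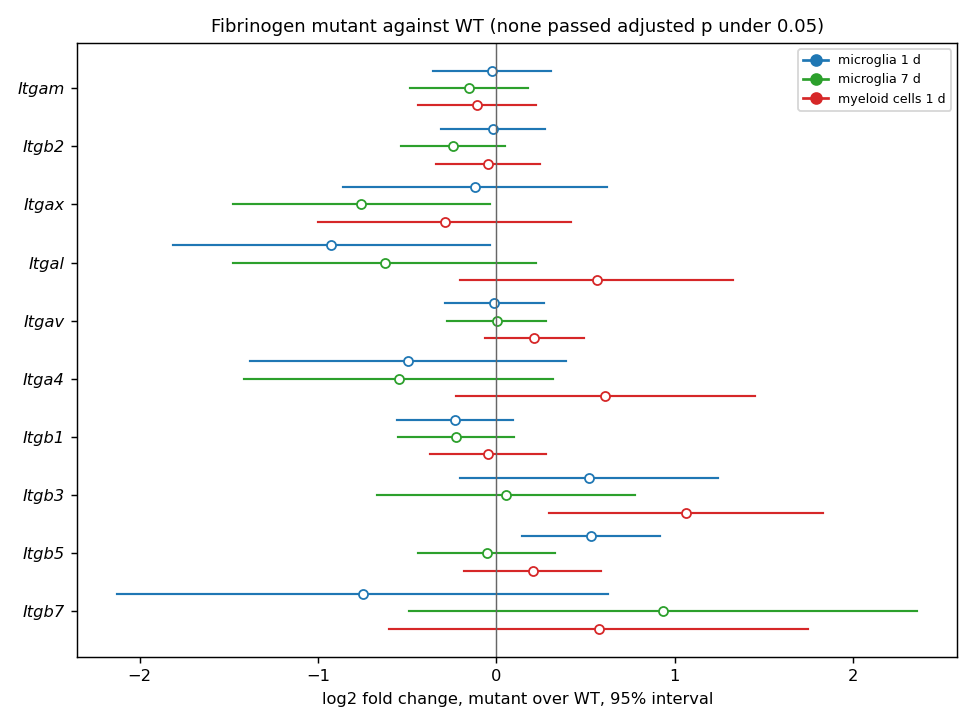
Log2 fold change of Fgg over WT (x axis) with its 95% interval for each gene (y axis) in day 1 microglia, day 7 microglia and day 1 myeloid cells. No point passed adjusted p under 0.05. Intervals are narrow for Itgam, Itgb2, Itgav and Itgb1 and wide for Itgb7. Itgb7 is near its detection floor in microglia but not in myeloid cells (328 to 1129 counts per library). All groups share the dispersion estimate of a gene, so its myeloid interval also takes in the spread among microglia.

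Whether the genotype difference itself changed was tested by interaction terms. Between day 7 and day 1 microglia 0 of 10 genes were called by edgeR and by DESeq2, against 0.0% of all genes by edgeR and 0.103% by DESeq2. Itgb5 alone had an unadjusted edgeR p under 0.05 (difference in log2 fold change -0.59, 95% interval -1.13 to -0.04), as did 653 of all 23815 genes. Between myeloid cells and microglia at day 1 again 0 were called by both tools, against 0.0252% and 0.59% of all genes. Here Itgal alone had an unadjusted edgeR p under 0.05 (1.49, 0.31 to 2.66), as did 1994 of all 23815 genes. For Itgam the 2 differences were -0.13 (-0.59 to 0.34) and -0.08 (-0.55 to 0.38).

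Of 17 further integrin subunits listed, 15 were measured. In WT day 1 microglia 3 of 15 were called against sham, 2 higher and 1 lower, and in Fgg 2 of 15, both higher, where 16.7% and 9.8% of all genes were called. The median log2 fold change of the list was 0.00 in WT and -0.12 in Fgg, beside 0.02 and 0.05 over genes with a median of at least 1 CPM. Itga5, which with Itgb1 forms the fibronectin receptor, rose from 4.65 ± 1.27 CPM in sham to 33.1 ± 10.9 in WT (log2 fold change 2.83 ± 0.32 (SE), adjusted p = 3.84e-06) and 22.1 ± 8.3 in Fgg (log2 fold change 2.24 ± 0.31 (SE), adjusted p = 7.31e-05). Itga6, of the laminin receptor α6β1, rose from 198 ± 11.1 CPM to 368 ± 51.5 (log2 fold change 0.9 ± 0.17 (SE), adjusted p = 0.000956) and 325 ± 50.8 (log2 fold change 0.72 ± 0.17 (SE), adjusted p = 0.00969). Itgae, an α partner of Itgb7, was lower in WT, at 0.254 ± 0.211 CPM against 1.57 ± 0.754. At day 7 edgeR and DESeq2 called 0 against sham in either genotype, where edgeR called 2.69% of all genes in WT and 0.886% in Fgg. An unadjusted edgeR p under 0.05 was found for 2 in WT and 1 in Fgg, against 2783 and 1808 of all 23815 genes. Between day 7 and day 1, 2 of 15 in WT and 2 of 15 in Fgg fell (6.6% and 4.56% of all genes fell), Itga5 to 7.97 ± 0.512 and 7.37 ± 1.89 CPM and Itga6 to 192 ± 16.9 and 195 ± 3.88. Between myeloid cells and microglia 4 of 15 in WT and 5 of 15 in Fgg were called, against 15.7% and 21.4% of all genes. Itga6 was lower in myeloid cells, at 77.7 ± 18 CPM in WT (log2 fold change -2.25 ± 0.18 (SE), adjusted p = 1.71e-07) and 88.6 ± 8.1 in Fgg, as was Itga9, at 8.0 ± 3.01 and 13.2 ± 7.01, while Itga1, a collagen receptor chain, was higher at 4.67 ± 2.75 and 4.06 ± 0.488.

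Genes that switch integrins on and relay their signal moved in both directions. Of 34 listed and measured, 12 were called in WT day 1 microglia against sham, 5 higher and 7 lower, and 4 in Fgg, 3 higher and 1 lower, where 16.7% and 9.8% of all genes were called. Tln1 (talin, which opens integrins from inside) rose from 63.6 ± 8.65 CPM to 149 ± 31.3 in WT (log2 fold change 1.22 ± 0.19 (SE), adjusted p = 9.94e-05) and 112 ± 29.6 in Fgg (log2 fold change 0.81 ± 0.19 (SE), adjusted p = 0.00651). Fcer1g, an adaptor that couples β2 integrins to Syk, rose from 941 ± 125 CPM to 2015 ± 570.3 in WT and 1802 ± 442 in Fgg, whereas Syk itself fell in WT from 25.2 ± 2.31 to 12.6 ± 0.843 (log2 fold change -1.0 ± 0.21 (SE), adjusted p = 0.00165). At day 7, 2 were called in WT and 1 in Fgg, all higher (2.69% and 0.886% of all genes were called), with the Src-family kinase Fgr at 14.4 ± 1.17 CPM in WT (log2 fold change 3.8 ± 0.41 (SE), adjusted p = 2.33e-05) and 6.7 ± 2.71 in Fgg (log2 fold change 2.7 ± 0.40 (SE), adjusted p = 0.0016), against 1.02 ± 0.442 in sham. Day 7 against day 1 gave 8 calls in WT, 4 in each direction, and 2 in Fgg, both lower, against 10.3% and 5.64% of all genes. One of the latter was Apbb1ip (RIAM, which brings talin to the membrane), at 162 ± 8.95 CPM against 234 ± 14. In myeloid cells 12 were called in WT, 9 higher and 3 lower, and 16 in Fgg, 13 higher and 3 lower, against 15.7% and 21.4% of all genes. Cyth1, cytohesin-1, a regulator of β2 integrins, was at 57.9 ± 14.7 CPM in WT myeloid cells and 4.47 ± 0.65 in microglia (log2 fold change 3.69 ± 0.26 (SE), adjusted p = 3.77e-08). List medians there were 0.40 in WT and 0.48 in Fgg.

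Among 25 listed ligands and membrane partners, 24 were measured. In day 1 microglia 9 were called in WT, 5 higher and 4 lower, and 7 in Fgg, 5 higher and 2 lower, against 16.7% and 9.8% of all genes. Spp1 (osteopontin, an αv and α4 ligand) rose from 2.22 ± 2.03 CPM in sham to 406 ± 109.7 in WT (log2 fold change 7.49 ± 0.65 (SE), adjusted p = 3.19e-07) and 220.1 ± 111 in Fgg (log2 fold change 6.6 ± 0.63 (SE), adjusted p = 1.45e-06). Fn1 (fibronectin) rose from 2.09 ± 1.98 CPM to 97.7 ± 38.3 in WT (log2 fold change 5.52 ± 0.64 (SE), adjusted p = 5.54e-06) and 30.4 ± 7.73 in Fgg (log2 fold change 3.83 ± 0.59 (SE), adjusted p = 0.00021), and Plaur, the urokinase receptor that associates with β2 integrins, to 24.7 ± 3.21 and 18.7 ± 4.15. Jam2, a ligand of α4β1, fell from 41.9 ± 5.26 CPM to 16.8 ± 4.42 in WT and 24.1 ± 2.89 in Fgg. At day 7, 3 were called in WT and 1 in Fgg, all higher, against 2.69% and 0.886% of all genes, with Spp1 at 223 ± 104 and 49.2 ± 19.7 CPM. Against day 1, 7 were called in WT, 2 higher and 5 lower, and 4 in Fgg, all lower (10.3% and 5.64% of all genes were called). In myeloid cells 13 were called in each genotype, 8 higher and 5 lower in WT and 9 and 4 in Fgg, where 15.7% and 21.4% of all genes were called. Thbs1 (thrombospondin-1) was at 1348 ± 556 CPM in WT myeloid cells against 42.6 ± 21.4 in microglia, and at 994 ± 508 against 13.7 ± 0.448 in Fgg. Between genotypes edgeR called 0 genes of the 3 lists. In day 1 microglia, day 7 microglia and myeloid cells an unadjusted edgeR p under 0.05 was found for 1, 0 and 0 further subunits. For signalling genes there were 2, 1 and 1 and for ligands and partners 6, 3 and 5, against 1208, 795 and 2748 of all 23815 genes. In the same order DESeq2 called 0, 0 and 0 subunits, 0, 0 and 0 signalling genes and 0, 1 and 2 ligands and partners. Its shares of all genes were 0.349%, 0.31% and 2.67%.

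Over the 21 libraries, the levels of each gene were set against 5420 protein-coding genes with a mean log2 CPM of at least 3. These correlations describe libraries that share cell type, time and depth. Itgal was most like Tmsb10, Plbd1 and Jak2 (r = 0.973, 0.972 and 0.968), Itga4 like Lyz2, Pla2g7 and Wfdc17 (r = 0.979, 0.968 and 0.967), and Itgb7 like Eps8, Ccr2 and Plbd1 (r = 0.949, 0.937 and 0.936). Lyz2, Plbd1 and Ccr2 are genes of peripheral myeloid cells. Itgb2 was most like Dazap2, Cast and Foxn2 (r = 0.982, 0.974 and 0.973) and Itgax like Npc2, Aplp2 and Fgr (r = 0.971, 0.948 and 0.938). Npc2 is a lysosomal cholesterol carrier and Fgr a Src-family kinase. Itgb5 was most like Serinc3, Unc93b1 and Frmd4b (r = 0.963, 0.963 and 0.961), Itgb3 like 0610040J01Rik, Pag1 and B3galnt1 (r = 0.936, 0.93 and 0.93), and Itgav like Edem1, Xpot and Ube3c (r = 0.902, 0.901 and 0.855). Unc93b1 carries Toll-like receptors to endosomes, and Serinc3 is a membrane protein. Itgb1 was most like Arhgdia, Eif3c and Naa50 (r = 0.971, 0.97 and 0.959), and Itgam like Pabpc1, Ranbp2 and Fdx1l (r = 0.893, 0.882 and 0.878). The highest r of Itgam and of Itgav were the lowest among the 10 genes.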

How the data were processed

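The study sequenced 21 libraries of sorted mouse brain myeloid cells, prepared with a low-input whole-transcript kit. The authors deposited 1 table of estimated counts, salmon gene counts with transcript length divided out and scaled to each library's reads (GRCm38, no scaling between libraries), which were rounded to whole counts here. Gene symbols were matched by identifier to GENCODE M21, with 563 of 45706 identifiers unmatched. Groups came from the submitters' labels. All 21 libraries entered 1 edgeR 4.0.16 quasi-likelihood fit (R 4.3.3) with TMM factors, a mean per group and genes with at least 5 counts in all (23815 genes). P-values were Benjamini-Hochberg adjusted over these genes, and 95% intervals were taken from the log2 fold change and its SE. Shares and ratios were compared by two-sided exact permutation tests that took the libraries as unpaired. DESeq2 1.42.0, other scaling, filters, samples, thresholds, a replicate block and leaving out each library were the alternatives, and the fits were tested on simulated data. All 10 members are named in each comparison, and up to 3 genes per direction with the smallest adjusted p from the further lists. The members and lists were chosen with earlier results of these data known. Replicates are separate pools of 2 brains, and p-values measure the spread between those pools. Libraries held 18896963 to 51875790 counts, with 3 of these length-scaled counts in a library taken as the detection floor. Replicate numbers were checked as pairs from the labels. All 3 same-numbered pairs correlated above 0.1 only for Fgg and WT microglia at day 1 (lowest r = 0.163) and for WT microglia and myeloid cells at day 1 (lowest r = 0.118). In the former, Fgg replicate 2 with WT replicate 3 (r = 0.238) and Fgg replicate 3 with WT replicate 2 (0.175) exceeded that lowest value. The replicate 1 pair of these microglia had r = 0.599, the highest of all pairs. Both its libraries ran against replicates 2 and 3 of the other genotype (r = -0.271 to -0.403). Without WT day 1 replicate 1, edgeR called 47 of all genes between these microglia, against 10 with it, and 0 members. The correlations thus do not settle whether numbers pair the Fgg and WT microglia. For WT microglia and myeloid cells the same-numbered r were 0.198, 0.234 and 0.118, each above every differently numbered r (highest 0.0332). Same-numbered libraries there may come from the same pools, which the labels do not state. The main tests took them as unpaired. Only the replicate block used the numbers. Motifs were searched in RefSeq promoter windows.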

Additional observations from a re-analysis of the deposited data

How the results depend on the processing

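Counts of called members changed by more than 1.5-fold under these alternatives. For WT day 1 microglia against sham 3 became 0 at the study's thresholds. For Fgg day 1 against sham 1 became 2 with the filterByExpr filter or DESeq2, and 0 with only the compared groups or at the study's thresholds. For WT day 7 against sham 1 became 2 with DESeq2 size factors or filterByExpr and 3 with DESeq2. For Fgg day 7 against sham 1 became 0 with only the compared groups and 2 with DESeq2. For day 7 against day 1, 4 in WT became 2 with only the compared groups or at the study's thresholds, and 2 in Fgg became 1 with DESeq2 size factors, no filter or the study's thresholds and 4 with DESeq2. The study's thresholds require a log2 fold change above 1 (1.5 for WT day 1 against sham). The cause of the other changes was not tested. Leaving out 1 library gave 2 to 4 calls for WT day 1 against sham, 0 to 2 for Fgg day 1, 1 to 2 for WT day 7, 1 to 1 for Fgg day 7, 2 to 4 for WT day 7 against day 1, 0 to 3 for Fgg day 7 against day 1, 7 to 8 for myeloid cells against microglia in each genotype, and 0 to 1 for Fgg against WT myeloid cells, and 0 throughout for the other genotype comparisons and the interactions. Both genotype comparisons in microglia kept 0 members called under all alternatives.

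With the replicate block, 0 members were called between Fgg and WT in day 1 microglia and 8 between WT myeloid cells and microglia, the same counts as without it, and no other member count changed. Same-numbered pairs had a mean r of 0.0434 and others -0.0217. Of 1810 recomputed log2 fold changes of members, 39 lost and 20 gained a call, none turned direction with a call in either fit, and 109 without a call changed sign. DESeq2 size factors moved the abundant members' log2 fold changes by a median of -0.13 for Fgg day 1 against sham, 0.13 for Fgg myeloid cells against microglia and 0.10 for Fgg day 7 against day 1, and moved 1 of 70 group means by over 1 SD. Itgal and Itgb7 values in microglia rest on few counts.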
